A study of Homo sapiens with 15 samples.

Results

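The 38 genes described here encode proteins of the Fanconi anemia pathway, homologous recombination and the damage checkpoint, and were measured by RNA sequencing in human lung adenocarcinoma cells. They were taken from the deposited table by a list of symbols, and all 38 were found among its 19612 gene symbols. H1975 cells carry EGFR T790M and L858R, and H1975-OR cells were derived from them by growth in the EGFR inhibitor osimertinib. The experiment asked how resistant cells differ from parental cells and how they respond to 1,25(OH)2D3, the hormone made from vitamin D3, and to osimertinib.

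Fanconi anemia proteins act on cross-links that tie the strands of DNA together. A core complex, with UBE2T as the conjugating enzyme, attaches ubiquitin to FANCD2 and FANCI, and nucleases then cut around the lesion. The break that this leaves is resected, prepared for strand exchange with the help of BRCA2 and its partners, and repaired from the sister chromatid by homologous recombination. ATM and ATR are kinases that sense broken or single-stranded DNA and signal through CHEK2 and CHEK1 to hold the cell cycle. Many genes of these pathways are transcribed mostly in S phase, under E2F factors.

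There were 15 libraries, 3 for each of 5 conditions. Samples 1a to 1c were H1975 cells given vehicle. The other 4 conditions were H1975-OR cells. Samples 2a to 2c received vehicle, and Samples 3a to 3c received 1,25(OH)2D3 at 100 nM. Samples 4a to 4c received osimertinib at 500 nM, and Samples 5a to 5c received both agents at these doses. All groups carried both EGFR mutations. Cells were treated for 96 h in medium with charcoal-stripped serum, with doses at 0, 48 and 92 h. H1975-OR cells otherwise grew in 500 nM osimertinib, so that their vehicle and 1,25(OH)2D3 groups were off the inhibitor for this time. H1975-OR is a single resistant line, and its difference from H1975 is therefore that of 1 derivation, with libraries from 3 separate passages. The p-values below judge differences against the spread between libraries of these passages, and not between separate derivations.

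The values are estimated counts, based on the reads that Kallisto assigned to each gene, and summed to between 4378033 and 6140025 per library. They are given as CPM, counts per 1000000 of a library total that edgeR's TMM method had scaled, so that levels are compared between libraries and not between genes. Where a library gave 0 counts for a gene, this allows up to 3 counts, or 0.477 to 0.708 CPM by library, for counting error only. Groups were set against each other in edgeR by its quasi-likelihood test, with p-values adjusted by Benjamini-Hochberg over all genes tested and a threshold of 0.05. These tests did not pair libraries by replicate letter, which was done only in an alternative fit with the letter as a block. Sample 3a was left out of the tests, as it was by the authors. It had the highest share of mitochondrial counts, 1.54% against 0.424% to 1.05% elsewhere, and the lowest correlation with its own group, 0.912 against 0.936 to 0.965. CYP24A1, the vitamin D target that degrades the hormone, lay between 677 and 1470 CPM in the 6 libraries with 1,25(OH)2D3 and at 25.6 CPM or less in the other 9. Keratin genes were expressed throughout, with KRT18 between 1779 and 2921 CPM, but the adhesion markers of epithelium were low in H1975-OR. The alveolar markers SFTPB, SFTPC and NAPSA were at 2.25 CPM or less, and the T cell marker CD3E was at 0 in all 15 libraries. The 10 epithelial markers summed to between 4604 and 5945 CPM in H1975 and between 3274 and 4403 CPM in H1975-OR, where EPCAM was between 1.18 and 12.7 CPM against 75.0 to 207 CPM. CDH1, which encodes E-cadherin, was at 108 to 384 CPM in H1975, 2.45 to 9.41 CPM in H1975-OR without 1,25(OH)2D3 and 39.6 to 152 CPM with it. The 5 fibroblast markers summed to 13.8 to 62.0 CPM, the 5 leukocyte markers to 7.79 to 59.5 CPM and the 4 endothelial markers to 3.48 to 17.3 CPM, and their part in the results was not tested.

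**Figure D1:**
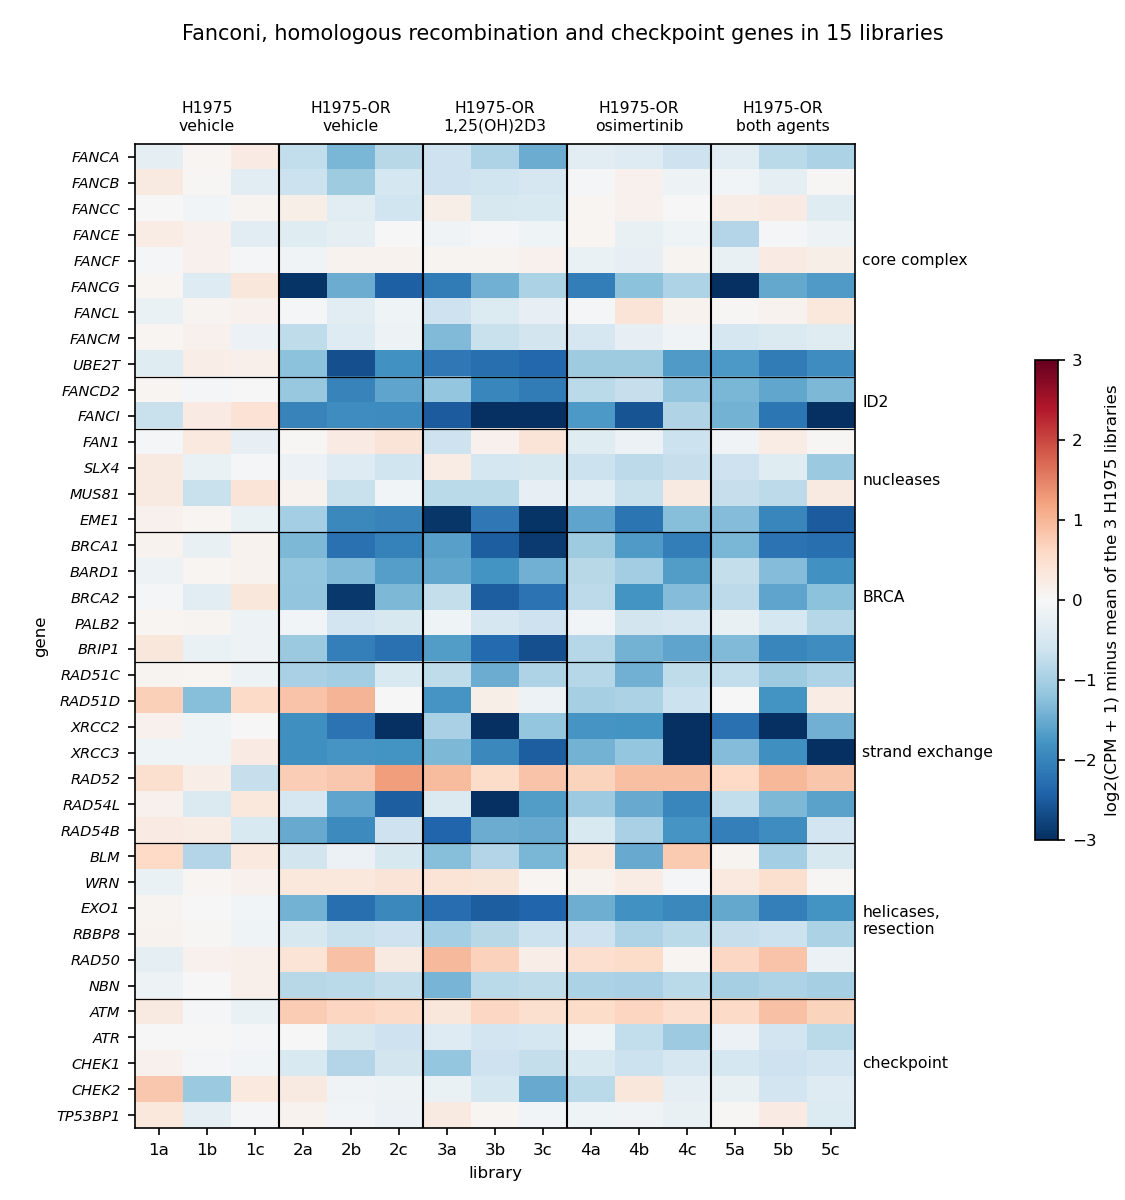
Each row is a gene, grouped by role, and each column a library. Color gives log2(CPM + 1) minus the mean of the 3 H1975 libraries, blue for lower and red for higher, with values beyond 3 in either direction drawn in the end color. The H1975-OR columns are blue for FANCG, UBE2T, FANCD2, FANCI, EME1, the BRCA genes other than PALB2, XRCC2, XRCC3 and EXO1, and red for RAD52, ATM and, but for Sample 5c, RAD50.

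The genes were lower in vehicle-treated H1975-OR than in vehicle-treated H1975 in most cases, with the largest falls in FANCG, FANCI, UBE2T, EXO1 and XRCC3 among those that passed the test. Of the 38 genes, 17 fell and 1, ATM, rose. That is 47.4% of the list, against 20.1% of all 12513 genes tested in either direction, 10.3% lower and 9.89% higher. The median log2 fold change of the 38 genes was -0.60, against 0.01 over all genes. DESeq2 called the same 18 genes, and without Sample 1b edgeR called 11, all of them lower. Libraries of the groups did not overlap for 20 genes that were lower and 4 that were higher, and over all genes 20.3% lay lower and 19% higher without overlap. The summed level of the 38 genes was 1990 to 2138 CPM in H1975 and 1321 to 1553 CPM in vehicle-treated H1975-OR. In bulk libraries, fewer cells expressing a gene and less RNA per cell cannot be told apart.

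Genes of the dividing cell fell beside them. Of 20 proliferation genes, such as MCM5 and MCM4 of the replicative helicase and RRM2 of ribonucleotide reductase, 16 fell and 0 were higher by edgeR even at an unadjusted p under 0.05, and their median log2 fold change was -1.73. Their sum was between 3472 and 3726 CPM in the 3 H1975 libraries, 1445 CPM in Sample 2a, 921 CPM in 2b and 950.3 CPM in 2c. The part of cell proliferation in the differences below was not tested.

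Promoters of the genes are shown because many S phase genes are bound by E2F factors. At least 1 window of 250 bases before to 50 after a start, from RefSeq on GRCh38.p14, was found for 34 of the 38 genes. Each window was searched on both strands for TTT, then C or G at each of the next 2 positions, then CGC. This E2F motif was in 5 of the 34, namely EXO1, FANCA, FANCC, FANCD2 and XRCC2, which is 14.7%, against 3.99% of 27305 genes. It was in 3 of the 14 fallen genes with a window and in 2 of the other 20. The CHR element of cell cycle genes, TTTGAA or TTCGAA, was in 4 of the 34 (11.8%), ATM, BRIP1, FANCC and UBE2T, against 19.5% of genes, and by its letters cannot overlap an E2F match. A gene was counted if any of its windows held the motif. Of all 35116 windows, 3.31% held the E2F motif and 16.4% the CHR element. A match in these letters does not show that a factor binds there. Shown here are the 3 fallen genes that hold the E2F motif and, for contrast, XRCC3, which has neither motif in any window. Capitals mark the motif, in the sense of the gene. The EXO1 stretch lies at chr1:241848158-241848233 on the plus strand, with the motif at bases 5 to 12 from the transcript start that the RefSeq window uses, which lies after the first annotated base of the gene, 241847986. The FANCD2 stretch is chr3:10026385-10026466, plus strand, with the motif on the opposite strand from 2 bases before the start to base 6. For FANCA it is chr16:89816762-89816869, minus strand, with the motif on the opposite strand from -172 to -165, counted from the start. The XRCC3 stretch, chr14:103715452-103715551 on the minus strand, is the 100 bases before the start.
EXO1: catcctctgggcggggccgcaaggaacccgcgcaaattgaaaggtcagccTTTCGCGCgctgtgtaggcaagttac
FANCD2: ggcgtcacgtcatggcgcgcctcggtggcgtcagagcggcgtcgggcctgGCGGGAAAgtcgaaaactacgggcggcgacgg
FANCA: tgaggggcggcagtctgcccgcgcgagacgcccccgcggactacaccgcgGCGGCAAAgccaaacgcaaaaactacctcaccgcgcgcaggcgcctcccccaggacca
XRCC3: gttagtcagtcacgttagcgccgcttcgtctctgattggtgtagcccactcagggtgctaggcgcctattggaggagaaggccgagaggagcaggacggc

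For 8 of the 18 genes the call held under every alternative that tested them, 14 for FANCI and 15 for the others. The 8 genes are spread over 6 chromosomes of GRCh38.p14. These are EXO1 at chr1:241847986-241889939, UBE2T at chr1:202331657-202341936, BARD1 at chr2:214725646-214809683, FANCD2 at chr3:10026437-10101932, FANCI at chr15:89243979-89317259, NBN on chromosome 8, BRCA1 at chr17:43044295-43170327 and BRIP1 at chr17:61679139-61863528. ATM, the gene that rose, lies at chr11:108223067-108369102 and overlaps C11orf65.

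**Figure D2:**
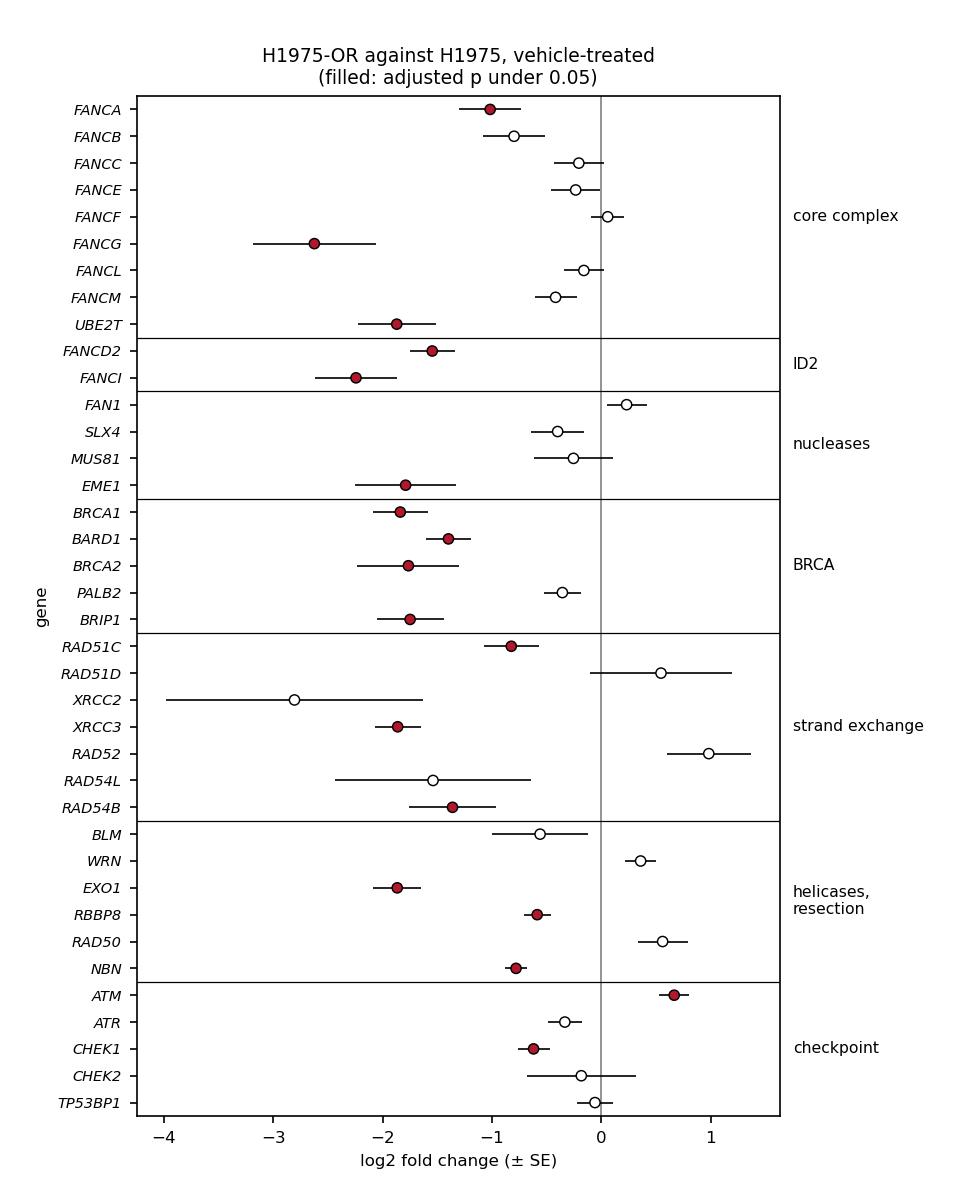
Points give the log2 fold change of vehicle-treated H1975-OR against vehicle-treated H1975 for each gene, by role, and bars its SE. The 18 filled points have an adjusted p under 0.05 by edgeR, and ATM is the only filled point to the right of 0.

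FANCD2 and FANCI, the pair that is ubiquitinated at a cross-link, were both lower in H1975-OR. FANCD2 stood at 101, 93.2 and 97.9 CPM in Samples 1a to 1c and at 43.4, 23.6 and 31.8 CPM in 2a to 2c. The lowest parental library was thus above the highest resistant one, and the fall was 1.55 on the log2 scale (SE 0.21, adjusted p = 0.00204, edgeR), or 2.92-fold. FANCI stood at 9.88, 19.3 and 22.2 CPM in H1975 and at 3.27, 3.72 and 3.66 CPM in vehicle-treated H1975-OR. Its groups did not overlap either, and it fell by 2.24 (SE 0.38, adjusted p = 0.00514, edgeR), or 4.73-fold, on 16 to 19 counts in each resistant library. FANCI was shown by the study among cell cycle genes chosen on these samples, so that its direction is not independent evidence. FANCD2 has 2 annotated pseudogenes, with which Kallisto can share its reads, and FANCI overlaps POLG.

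Of the 9 genes of the core complex and its conjugating enzyme, 3 fell, and 0 were higher by edgeR even at an unadjusted p under 0.05. UBE2T, the enzyme that passes ubiquitin to FANCD2, was at 34.0, 50.3 and 49.0 CPM in H1975 and at 18, 6.21 and 11.8 CPM in H1975-OR. All resistant libraries lay below all parental ones, with a fall of 1.87 (SE 0.35, adjusted p = 0.0083, edgeR). FANCG, an adaptor subunit, was at 13.3, 9.66 and 16.5 CPM against 0.818, 3.93 and 1.54 CPM. These were only 4 to 19 counts in the resistant libraries, and the groups did not overlap. FANCG fell by 2.62 (SE 0.56, adjusted p = 0.0131, edgeR), and its adjusted p was 0.0509 with 14 libraries in one fit. FANCA, another subunit of the complex, was at 19.6, 25.2 and 28.9 CPM against 14.1, 8.69 and 13.1 CPM, without overlap, and fell by 1.02 (SE 0.28, adjusted p = 0.0372, edgeR). This call was lost in 6 of 15 alternatives, among them those without Sample 1b, 1c, 2b or 2c.

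The other 6 core genes did not pass the test. FANCB and FANCL belong to the catalytic module of the complex, in which FANCL is the ubiquitin ligase. FANCB was at 17.8, 14.9 and 11.6 CPM against 9, 6.41 and 9.83 CPM, with a log2 fold change of -0.80 (adjusted p = 0.0831, edgeR) although the groups did not overlap. FANCL had -0.16, FANCC -0.21, FANCE -0.24 and FANCM, the helicase that anchors the complex to DNA, -0.42. FANCF was the only core gene with a positive value, 0.06, at 30.1 to 34.6 CPM in H1975 and 29.5 to 34.3 CPM in vehicle-treated H1975-OR.

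Of the 4 nuclease genes, only EME1 passed the test. It encodes the partner of MUS81 in cutting branched DNA. EME1 was at 15.2, 14.6 and 12 CPM in H1975 and at 6.34, 2.90 and 2.70 CPM in H1975-OR. The groups did not overlap and EME1 fell by 1.79 (SE 0.46, adjusted p = 0.0283, edgeR), a call lost in 5 of 14 alternatives, each of which left out 1 of Samples 1a, 1b, 1c, 2b and 2c. MUS81 itself had a log2 fold change of -0.26, the scaffold SLX4 -0.40 and the nuclease FAN1 0.23, each with overlapping libraries.

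Among the BRCA proteins, 4 of 5 genes fell by 1.40 to 1.84 on the log2 scale. BRCA1, which with BARD1 forms a ubiquitin ligase that promotes resection, was at 135, 107 and 136 CPM in H1975 and at 48.9, 25.9 and 29.9 CPM in H1975-OR. Its highest resistant library was below its lowest parental one, and it fell by 1.84 (SE 0.25, adjusted p = 0.00212, edgeR). BARD1 was at 42.3, 48.9 and 51.1 CPM against 20.7, 18.4 and 14.3 CPM. It did not overlap between groups and fell by 1.40 (SE 0.20, adjusted p = 0.00292, edgeR). BRIP1, a helicase that binds BRCA1, was at 136, 94.1 and 97.1 CPM against 49.1, 25.2 and 22.0 CPM, also without overlap, and fell by 1.75 (SE 0.31, adjusted p = 0.00596, edgeR).

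BRCA2, a mediator of strand exchange, was at 24.4, 20.1 and 31.9 CPM in H1975 and at 10.4, 2.48 and 9.25 CPM in H1975-OR. It fell by 1.76 without overlap (SE 0.47, adjusted p = 0.0303, edgeR), but the call was lost in 5 of 15 alternatives, those without Sample 1a, 1b, 1c or 2c and with Sample 3a kept in. PALB2, the bridge between BRCA1 and BRCA2, did not pass the test. It lay between 52.5 and 61.6 CPM in H1975 and between 38.5 and 54.8 CPM in H1975-OR, which overlap, and had a log2 fold change of -0.36 (adjusted p = 0.165, edgeR).

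XRCC3, which works with RAD51C in strand exchange, had the smallest adjusted p of the 38 genes. Its level was 46.1, 46.1 and 59.6 CPM in H1975 and 13.3, 14.1 and 13.9 CPM in H1975-OR. The resistant libraries lay within 1 CPM of each other and far below the parental ones, and XRCC3 fell by 1.86 (SE 0.21, adjusted p = 0.00105, edgeR), or 3.64-fold. With 14 libraries in one fit its adjusted p was 0.09, where the libraries with osimertinib also set its spread. XRCC3 overlaps KLC1 in the annotation. RAD51C was at 30.7, 30.4 and 26.2 CPM against 14.3, 13.7 and 20.8 CPM and fell by 0.82 (SE 0.25, adjusted p = 0.0487, edgeR). This is just inside the threshold, and the call was lost in 10 of 15 alternatives, among them leaving out any library of the fit but 2c.

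RAD54B, a motor protein that aids strand exchange, was at 23.6, 23.1 and 14.2 CPM in H1975 and at 6.34, 4.55 and 12.5 CPM in H1975-OR. It fell by 1.36 (SE 0.40, adjusted p = 0.0435, edgeR) with no overlap, and the call was lost in 9 of 15 alternatives, among them those without Sample 1a, 1b, 2a, 2b, 3b or 3c. Its relative RAD54L had a log2 fold change of -1.54 but an SE of 0.89 (adjusted p = 0.262, edgeR). XRCC2, which also acts in strand exchange, ranged from 19.7 to 23.7 CPM in H1975 and was at 5.32, 3.93 and 0 CPM in Samples 2a to 2c. The value was lower in each resistant library, but the 3 differed so much that the log2 fold change of -2.81 (SE 1.18) had an adjusted p of 0.129 by edgeR. RAD52, which can anneal single strands without BRCA2, was at 9.01, 7.29 and 3.46 CPM against 11.1, 11.6 and 16.2 CPM. Its groups did not overlap, but its log2 fold change of 0.98 did not pass the test (adjusted p = 0.106, edgeR). RAD51D had 0.54 with overlapping libraries.

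Of the 6 genes of helicases and end resection, EXO1, NBN and RBBP8 fell and none rose by edgeR, with WRN and RAD50 higher at an unadjusted p under 0.05. EXO1, the exonuclease of long-range resection, was at 80.2, 74.0 and 71.4 CPM in H1975 and at 27.4, 14.9 and 18.9 CPM in H1975-OR. Its groups lay far apart, and it fell by 1.87 (SE 0.22, adjusted p = 0.00124, edgeR), or 3.65-fold. RBBP8, also called CtIP, starts resection, and was at 112, 106 and 95.2 CPM against 74.5, 64.9 and 67.1 CPM. It fell by 0.59 without overlap (SE 0.12, adjusted p = 0.0125, edgeR), and the adjusted p was 0.0532 without Sample 2b.

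NBN and RAD50 are subunits of one complex, which binds the ends of a break together with MRE11. NBN was at 259, 289 and 320 CPM in H1975 and at 161, 165 and 174 CPM in H1975-OR. It fell by 0.78 (SE 0.10, adjusted p = 0.0020, edgeR), or 1.72-fold, with no overlap. RAD50 was at 23.4, 31.0 and 31.8 CPM against 37.9, 53.1 and 34.5 CPM, higher in each resistant library, with a log2 fold change of 0.56 that did not pass the test (adjusted p = 0.119, edgeR). MRE11, outside the list of 38, was at 76.9, 57.1 and 71.8 CPM against 86.1, 73.6 and 75.0 CPM, with overlapping groups and a log2 fold change of 0.20 (adjusted p = 0.443, edgeR). Of the RecQ helicases, WRN had 0.36 (adjusted p = 0.111, edgeR), without overlap. BLM, which dissolves linked intermediates with its partners, ranged widely in H1975, at 16.6, 5.29 and 13.2 CPM. It was at 6.96, 9.31 and 7.33 CPM in H1975-OR, within the parental range, with a log2 fold change of -0.56 (adjusted p = 0.408, edgeR).

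Checkpoint genes moved in both directions. ATM, the kinase that responds to broken DNA ends, was at 191, 154 and 139 CPM in H1975 and at 273, 248 and 238 CPM in H1975-OR. Each resistant library was above each parental one, and ATM rose by 0.67 (SE 0.14, adjusted p = 0.0112, edgeR), or 1.59-fold. Without Sample 1b the adjusted p was 0.0521. CHEK1, the effector kinase of ATR, was at 87.5, 78.8 and 75.3 CPM against 58.3, 43.0 and 54.2 CPM. CHEK1 fell by 0.62 without overlap (SE 0.15, adjusted p = 0.0197, edgeR), a call lost without Sample 1a, 1b or 2b and with Sample 3a kept in.

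ATR, at 177 to 183 CPM in H1975 and 118 to 178 CPM in H1975-OR, had a log2 fold change of -0.33 (adjusted p = 0.159, edgeR). CHEK2, the effector kinase of ATM, ranged from 6.02 to 25.5 CPM among the parental libraries, which took in the resistant range of 12.5 to 17.2 CPM. Its log2 fold change was -0.18 (adjusted p = 0.828, edgeR). Like FANCI, CHEK2 and BLM were chosen by the study on these samples, and CHEK2 has 6 annotated pseudogenes with which reads could be shared. TP53BP1, which opposes resection, was at 127, 85 and 98.7 CPM against 110, 96.2 and 89.7 CPM and had the smallest log2 fold change but for FANCF, -0.06.

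**Figure D3:**
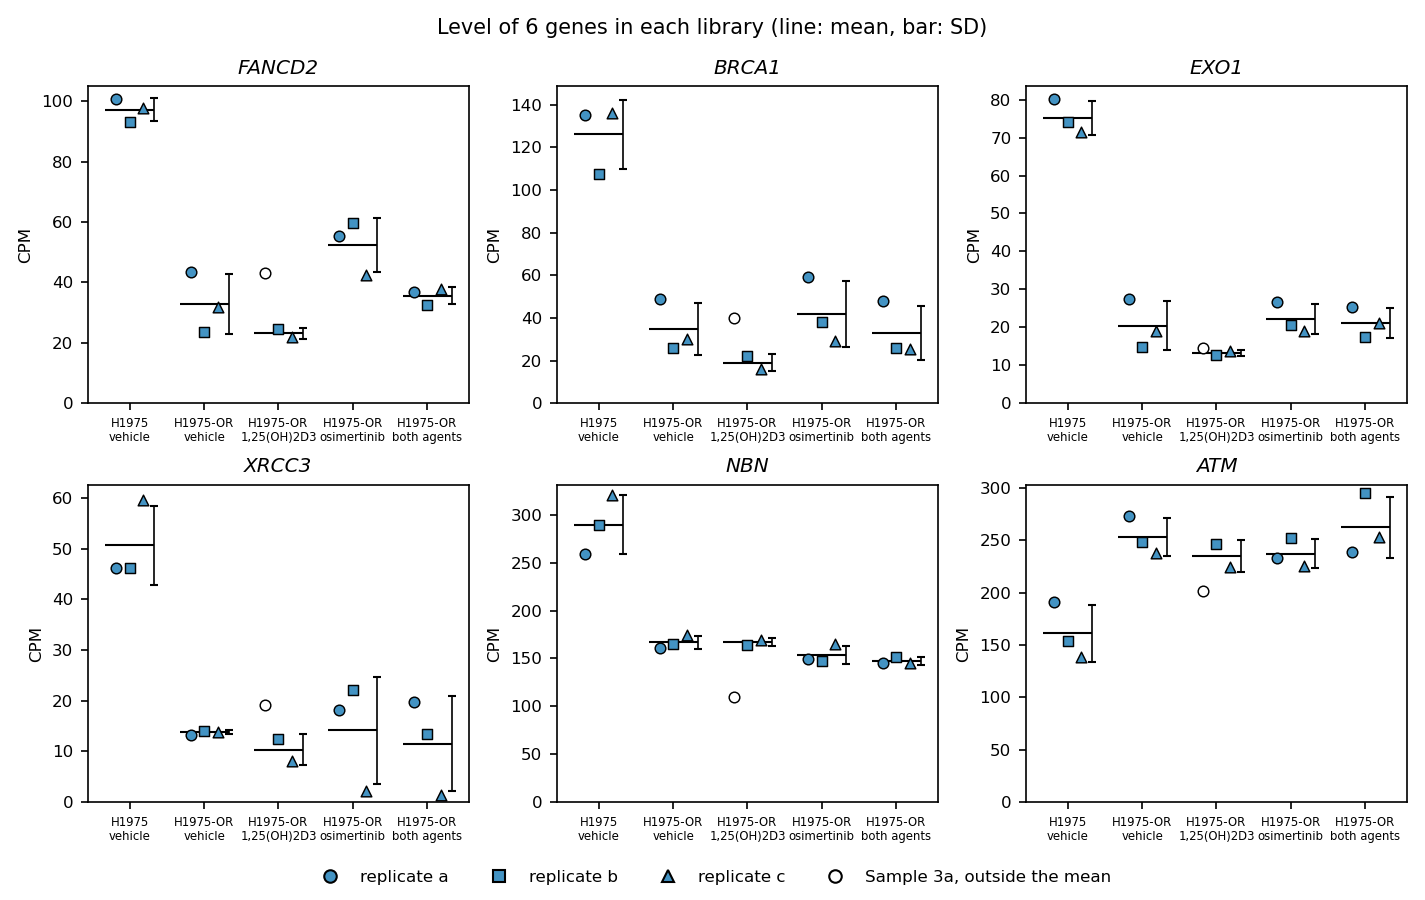
Each panel plots a gene's level in CPM in each of the 15 libraries by condition, with the symbol giving the replicate letter, the line the mean and the bar the SD. FANCD2, BRCA1, EXO1, XRCC3 and NBN are higher in the 3 H1975 libraries than in any H1975-OR library, and ATM is lower. The open circle is Sample 3a, which is left out of the mean. XRCC3 is at 2.25 CPM in Sample 4c and 1.42 CPM in 5c.

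Other genes of the same pathways were taken as a further list. In this list of 52 more replication stress, recombination and cross-link repair genes, 12 fell and none rose by edgeR, with 20 lower and 3 higher at an unadjusted p under 0.05 and a median log2 fold change of -0.49. The share called was 23.1%, against 20.1% of all genes, and 44.2% had an unadjusted p under 0.05, against 34.6% of all genes. TIMELESS of the fork protection complex fell by 1.78 (adjusted p = 0.00121, edgeR). POLQ, the polymerase of microhomology-mediated joining, fell by 1.99 (adjusted p = 0.00155, edgeR) and TOPBP1, the activator of ATR, by 1.18 (adjusted p = 0.00171, edgeR).

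Genes of end joining, which seals breaks without a template, gave 1 rise and no fall among 10 by edgeR, with 5 lower at an unadjusted p under 0.05. LIG4, the ligase of this pathway, rose by 0.80 (adjusted p = 0.0436, edgeR). The other 9 did not pass, and the median log2 fold change of the 10 was -0.51. The call of LIG4 is 10% of the list, against 20.1% of all genes, and 60% against 34.6% of all genes at an unadjusted p under 0.05.

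With 1,25(OH)2D3 alone, no gene of the list passed the test against vehicle. Of the 38 genes, 30 had a negative log2 fold change and 8 a positive one, and the median was -0.25, against -0.01 over all genes, and -0.14 without Sample 2a. None was called by edgeR or by DESeq2. Over all genes edgeR called 0.152%. At an unadjusted p under 0.05, 3 genes were lower and none higher, or 7.89% against 7.27% of all genes. FANCI was at 3.27, 3.72 and 3.66 CPM with vehicle and at 1.07 and 1.11 CPM in Samples 3b and 3c, with a log2 fold change of -1.68 (SE 0.49, adjusted p = 0.473, edgeR). Those are 5 and 6 counts, below each vehicle library, and 13 counts, or 2.07 CPM, in the omitted Sample 3a.

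BRCA1 was at 21.9 and 16.2 CPM in Samples 3b and 3c, below the vehicle libraries, with a log2 fold change of -0.87 (SE 0.29, adjusted p = 0.532, edgeR). Sample 3a, at 39.9 CPM, lay within the vehicle range. EXO1 was at 12.7 and 13.8 CPM against 14.9 to 27.4 CPM, with -0.62 (SE 0.26, adjusted p = 0.646, edgeR), and here Sample 3a, at 14.6 CPM, was also below all vehicle libraries. BRIP1 had -0.80 and EME1 -1.28, with adjusted p of 0.694 and 0.695 by edgeR. Of the 2 other genes that the study chose, CHEK2 had -1.06 (SE 0.59) and BLM -0.82 (SE 0.52). The study chose FANCI, CHEK2 and BLM on these samples, so that their direction is not independent evidence here either.

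Without overlap, 8 genes lay lower in Samples 3b and 3c than with vehicle, among them XRCC3 and EME1, and 1 higher, FANCG. Over all genes 12.3% lay lower and 13.1% higher in this way. Over the 20 proliferation genes the median was -0.62 on the log2 scale, with 9 lower at an unadjusted p under 0.05 and none called by edgeR. Their sum was 816.6 CPM in Sample 3b and 649 CPM in 3c, against 921 to 1445 CPM with vehicle. Their part in the values of the 38 genes was not tested.

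With osimertinib alone, the median log2 fold change of the list was 0.07, against 0.01 over all genes, and ran from -0.04 without Sample 4a to 0.18 without Sample 2a. No gene passed by edgeR or DESeq2, and edgeR called 0.048% of all genes. At an unadjusted p under 0.05, 2 genes were higher and 2 lower, or 10.5% against 7.53% of all genes. FAN1, the cross-link nuclease, was at 44.6, 51.5 and 57.1 CPM with vehicle and at 33.3, 38.3 and 27.4 CPM with osimertinib. Its libraries did not overlap, and the log2 fold change was -0.63 (SE 0.17, adjusted p = 0.386, edgeR). FANCB was at 14.1, 16.2 and 13.1 CPM with osimertinib, above each vehicle library, with 0.78 (SE 0.25, adjusted p = 0.448, edgeR).

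FANCD2 was at 55.4, 59.6 and 42.3 CPM with osimertinib, and Sample 4c fell within the vehicle range of 23.6 to 43.4 CPM. Its log2 fold change was 0.67 (SE 0.22, adjusted p = 0.485, edgeR). RAD51D had -1.97 (SE 0.68, adjusted p = 0.518, edgeR) on 8 to 11 counts in each osimertinib library, and FANCA had 0.57 (SE 0.29, adjusted p = 0.725, edgeR). In all, 4 genes were lower without overlap and 2 higher, against 6.81% and 5.96% of all genes. The proliferation genes had a median of 0.56, with 4 higher at an unadjusted p under 0.05 and none called by edgeR, and summed to 1283 to 1650 CPM.

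Adding 1,25(OH)2D3 to osimertinib gave a median log2 fold change of -0.08 over the 38 genes, and of -0.03, -0.05 and -0.04 without Sample 4a, 4c and 5c. None was called by edgeR or DESeq2, and edgeR called 0.096% of all genes. At an unadjusted p under 0.05 there were FANCD2, lower, and FAN1, higher, or 5.26% of the list against 4.16% of all genes. FANCD2 was at 36.7, 32.4 and 37.8 CPM with both agents, below each osimertinib library, with a log2 fold change of -0.57 (SE 0.22, adjusted p = 1, edgeR). FAN1 was at 40.1, 51.0 and 44.8 CPM, above each osimertinib library, with 0.45 (SE 0.17, adjusted p = 1, edgeR).

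Both agents together were also set against vehicle. The median log2 fold change was -0.06, and -0.13 to 0.02 with each library left out, the extremes being without Sample 2b and 2a. No gene was called by edgeR or DESeq2, and FANCB was the only gene with an unadjusted p under 0.05. It was at 13.6, 11.8 and 14.9 CPM, above each vehicle library, with 0.67 (SE 0.25, adjusted p = 0.306, edgeR). Over all genes edgeR called 0.496%, and 12.5% had an unadjusted p under 0.05. No gene of the list passed the test of a difference between the effects of 1,25(OH)2D3 with and without osimertinib, by edgeR or DESeq2. For this difference edgeR called 0% of all genes, and 2.64% of all genes and none of the 38 had an unadjusted p under 0.05.

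The 2 effects of each agent were then averaged over the 11 H1975-OR libraries. For 1,25(OH)2D3, 29 of the 38 genes had a negative value, as did 6506 of all 12503 genes tested. The median was -0.15 (-0.09 without Sample 2a, -0.10 without 3b), against -0.01 over all genes. At an unadjusted p under 0.05, 6 of the 38 genes were lower and none higher. None passed by edgeR or DESeq2, whereas edgeR called 0.368% of all genes, and 7.44% of them had an unadjusted p under 0.05. The 6 were FANCD2, with -0.54 (SE 0.17, adjusted p = 0.41, edgeR), BRIP1, BRCA1, FANCI, UBE2T and CHEK2, with values between -0.61 and -1.13. FANCI and CHEK2 were chosen by the study on these samples, so that their direction is not independent evidence. The proliferation genes had a median of -0.43, with 7 lower at an unadjusted p under 0.05.

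For osimertinib the averaged effect was positive for 25 of the 38 genes and for 6433 of all 12503 genes tested. The median was 0.12, against 0.01 over all genes, and ran from 0.09 without Sample 5c to 0.18 without Sample 3c. At an unadjusted p under 0.05, 7 genes were higher and 2 lower, or 23.7% against 16.4% of all genes, and none passed by edgeR, which called 2.04% of all genes. FANCD2 had the smallest adjusted p, 0.0919 by edgeR, with a log2 fold change of 0.64 (SE 0.17). It passed with DESeq2, with 14 libraries in one fit and without Sample 2a, at adjusted p of 0.0196, 0.0435 and 0.0267. With the replicate letter as a block, edgeR gave FANCD2 an adjusted p of 0.0571 and called BRIP1, at 0.53 (SE 0.12, adjusted p = 0.0322), the only gene of the list that this fit called.

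Besides FANCD2 and BRIP1, the genes higher at an unadjusted p under 0.05 were FANCB, FANCL, FANCC, FANCA and BRCA2. FAN1 and RAD51D were lower. All 20 proliferation genes had a positive value with a median of 0.78, 9 of them at an unadjusted p under 0.05, and none passed by edgeR. Their part in the values of FANCD2 and the other genes was not tested.

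**Figure D4:**
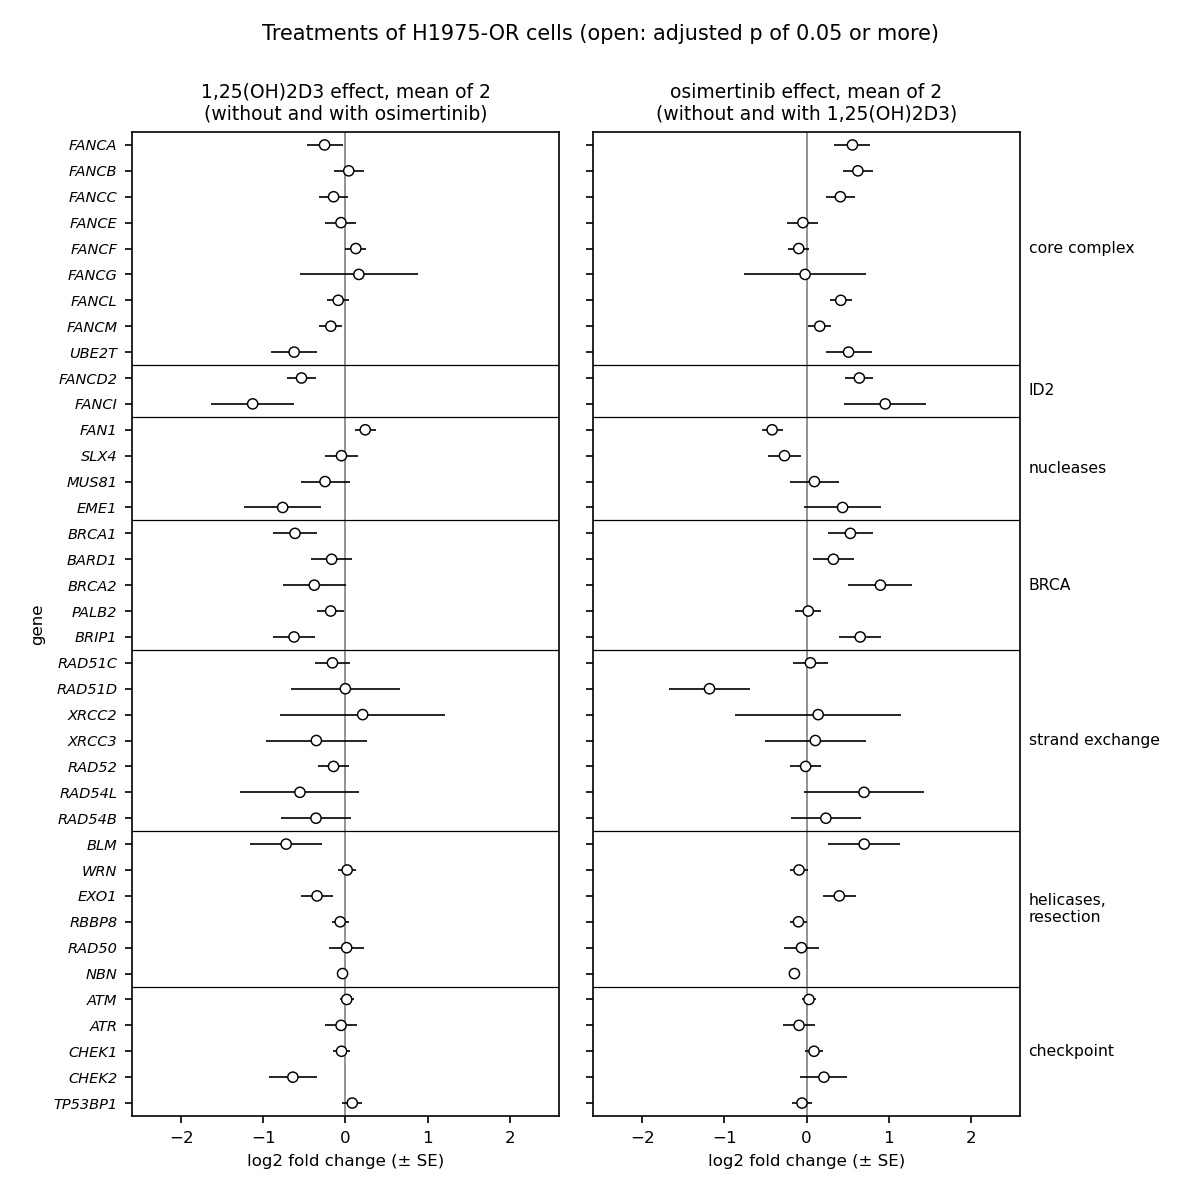
Points give, for each gene by role, the log2 fold change of each agent in H1975-OR cells, averaged over the comparisons without and with the other agent, and bars its SE. All points are open, since none has an adjusted p under 0.05 by edgeR. FANCI, BRIP1, BRCA1, UBE2T and FANCD2 lie left of 0 for 1,25(OH)2D3 and right of 0 for osimertinib. FANCI is among the genes that the study chose on these samples. Both panels use the same 11 libraries, and the groups given a single agent enter the 2 panels with opposite signs.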

How the data were processed

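RNA came from 3 separate passages per condition, and libraries were made with a stranded total RNA kit after removal of ribosomal RNA. The authors assigned 75-cycle paired-end reads to transcripts with Kallisto, summed them to genes with tximport and deposited the resulting estimated counts per gene. Whether tximport scaled these counts for depth or transcript length is not stated. The submitters' processing notes name kallisto 0.43.0, STAR 2.5.2b, CASAVA 1.8.2 and GRCh38. The transcript annotation, the tximport settings and the use of strand are not given in the sources used here, so that reads of overlapping genes and pseudogene copies may be shared.

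Counts were rounded to whole numbers. Genes were kept by filterByExpr by group (minimum count 10, minimum total 15) and scaled by TMM in edgeR 4.0.16 (R 4.3.3). All 38 genes passed in both fits. H1975-OR against H1975 and 1,25(OH)2D3 against vehicle came from one fit of 8 libraries and 12513 genes, and the other comparisons from one fit of 11 H1975-OR libraries and 12503 genes. SE is the log2 fold change divided by the square root of the test's F value. CPM were scaled over all 15 libraries together.

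The 38 genes and the further lists were chosen with earlier results of these data known. Full values are given for genes past the threshold, or else for up to 5 genes with the smallest p. Values of FANCI, BLM and CHEK2 are also given for H1975-OR against H1975 and for 1,25(OH)2D3 against vehicle. Alternatives were each library left out in turn, the replicate block, 14 libraries in one fit, Sample 3a kept in, DESeq2 1.42.0, RLE in place of TMM scaling, and the low-count filter dropped or raised to 10 counts in each library. A fit of 1,25(OH)2D3 against vehicle within the 11 libraries, with and without the block, was chosen after seeing the data.

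Whether replicate letters pair the libraries was checked by the correlation of same-letter deviations from the group means. It was 0.124 to 0.31 between vehicle and osimertinib and 0.118 to 0.341 between vehicle and both agents. Between osimertinib and both agents it was 0.258 to 0.464. Libraries of different letters reached at most 0.0928, 0.107 and 0.0835 in the same order. Each same-letter value was above these, so that the letters pair these groups, though by little for Samples 2b and 5b (0.118 against 0.107). Between H1975 and vehicle-treated H1975-OR it was -0.03 to 0.022, and those letters do not pair. For Sample 3b the same-letter correlation was 0.070 with 2b, 0.0066 with 4b and -0.0004 with 5b. For Sample 3c it was 0.108 with 2c, 0.156 with 4c and 0.107 with 5c. Samples 3b and 4a, which differ in letter, reached 0.1245, so that pairing of Samples 3b and 3c is not shown. The replicate block nevertheless covered both libraries, also in the fit that called BRIP1.

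With 200 genes of simulated counts changed by a log2 value of 2, the test recovered 138 for H1975-OR against H1975 (10 false calls), 133 for 1,25(OH)2D3 against vehicle (4), 150 for osimertinib against vehicle (10), 138 for both agents against osimertinib (7) and 132 for both agents against vehicle (8). Promoter windows and gene overlaps came from RefSeq tables of GRCh38.p14. Some results on further genes are not reported here.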

Additional observations from a re-analysis of the deposited data

How the results depend on the processing

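None of the 18 called genes changed direction under any alternative run. The median over the 38 genes changed sign for osimertinib against vehicle (0.07, and -0.04 without Sample 4a) and for both agents against vehicle (-0.06, and 0.02 without Sample 2a and 0.01 without 5c). It moved by over 1.5 times for the difference between 1,25(OH)2D3 effects (0.17, from 0.10 without Sample 2a to 0.26 without 5c, and 0.11 with the replicate block). It also moved by over 1.5 times without Sample 2a, 2b or 4b for osimertinib (0.18, 0.0026 and 0.16) and without Sample 2b, 5a or 5b for both agents against vehicle (-0.13, -0.09 and -0.04). The count of genes called between H1975-OR and H1975 was 11 (without Sample 1b) to 18 with each library left out in turn, 13 with Sample 3a kept in, 15 with the replicate block and 15 of 32 tested genes with at least 10 counts in every library. Of the 18 calls, 8 (EXO1, NBN, FANCD2, BRCA1, BARD1, FANCI, BRIP1 and UBE2T) held in every alternative that tested them, and 10 were lost in at least 1. For the averaged osimertinib effect the count was 0 to 1 with each library left out (1 without Sample 2a) and 1 with DESeq2, with the replicate block and with 14 libraries in one fit. For each other comparison the count stayed at 0 under every alternative, the block included. The cause of these changes was not tested, but for the fewer genes under the stricter filter.

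Over all genes, DESeq2 called 124 against 19 for edgeR with 1,25(OH)2D3, 117 against 6 with osimertinib, 66 against 12 for both agents against osimertinib, 364 against 62 for both against vehicle, 11 against 0 for the difference, and 197 against 46 and 757 against 255 for the averaged effects. The replicate block gave 9, 35, 33, 461, 0, 168 and 931 in the same order. The 9 for 1,25(OH)2D3 came from the fit that includes the H1975 libraries. Within the 11 H1975-OR libraries, edgeR called 12 genes for 1,25(OH)2D3 against vehicle without the block and 48 with it. With Sample 3a kept in, the count fell from 2521 to 1636 for H1975-OR against H1975, and without Sample 1b to 1426. FANCI and FANCG had under 20 counts in each vehicle-treated H1975-OR library, and each group had 2 or 3 libraries, which limits the precision of their values.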

Other observations

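Replicate letter a stood apart in the H1975-OR cells. In the vehicle, osimertinib and both-agent groups alike, the library with letter a was the highest of 3 for 11 of the 38 genes, among them BRCA1, BRIP1, EXO1, ATR and CHEK1, and for 14.5% of all genes. It was the lowest in all 3 groups for FANCG, FANCM and RAD52, and for 14.1% of all genes. BRCA1, for example, was at 48.9, 59.2 and 47.7 CPM in Samples 2a, 4a and 5a and between 25.2 and 37.9 CPM in the b and c libraries of these groups. Of the 20 proliferation genes, 12 were highest with letter a in all 3 groups. The part of proliferation in this pattern was not tested.

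XRCC3 differed between letters with osimertinib. It was at 18.1 and 22.1 CPM in Samples 4a and 4b and 19.9 and 13.4 CPM in 5a and 5b, but at 2.25 CPM, or 11 counts, in 4c and 1.42 CPM, or 6 counts, in 5c. The c libraries without osimertinib were at 13.9 CPM in 2c and 8.18 CPM in 3c. These values were singled out after they were seen, and no test was run on them.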
